A study of Mus musculus with 6 samples.

Results

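The mitochondrial genome of the mouse encodes 13 mRNAs, 2 rRNAs and 22 tRNAs, and all 37 were present in a table of counts from mouse liver, out of 55401 genes in all. They were taken as the genes whose Ensembl identifier carries a symbol beginning with mt-. The study asked what okra polysaccharide (OP), a carbohydrate preparation of the okra plant, does in metabolic dysfunction-associated fatty liver disease. Polyadenylated RNA was sequenced from fresh liver of C57BL/6 mice in 2 groups of 3 libraries. Mice of the HFCF group ate a diet rich in fat, cholesterol and fructose, and mice of the OP group were treated with OP. The labels do not say which diet the OP mice ate, give no dose, age or time, and include no group on a standard diet. They do not say that the replicates were separate animals, so the p-values below reflect only variation among these samples, possibly technical. Values are given in the order HFCF replicates 1, 2 and 3, then OP replicates 1, 2 and 3.

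Mitochondrial DNA is transcribed from both strands into long precursors that are cut at the tRNAs lying between the mRNAs and rRNAs. The mRNAs encode core subunits of respiratory complexes I, III and IV and of the ATP synthase, complex V, while all other subunits come from the nucleus. Most mitochondrial mRNAs receive short poly(A) tails, which in several of them complete the stop codon. The mRNA of mt-Nd6 is the known exception, described as lacking such a tail, and the rRNAs carry only a few adenosines, so how much of each RNA enters an oligo(dT) library also depends on its 3′ end.

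The annotated 3′ ends show where each gene stops, which need not be where a tail is added. The last 30 bases of 5 mRNA genes follow, 5′ to 3′ in DNA letters from the GENCODE M21 transcripts (GRCm38), with the encoded letters of the stop codon in capitals.
mt-Co3: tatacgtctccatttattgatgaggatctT
mt-Nd4: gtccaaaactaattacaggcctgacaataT
mt-Cytb: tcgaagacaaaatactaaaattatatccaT
mt-Co1: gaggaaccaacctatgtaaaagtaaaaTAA
mt-Nd1: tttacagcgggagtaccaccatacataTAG
In mt-Co3, mt-Nd4 and mt-Cytb the annotated gene stops at the T, and the poly(A) tail supplies the rest of the stop codon. In mt-Co1 and mt-Nd1 the annotated gene holds a full stop codon. The last 2 bases of mt-Nd1 are also the first 2 of mt-Ti, on the same strand. An mRNA cut at the start of mt-Ti would therefore end at the T, as in mt-Co3, mt-Nd4 and mt-Cytb.

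The mt-Nd6 gene lies on the strand opposite to the other 12 mRNA genes, and it meets its neighbour mt-Nd5 tail to tail. The last 30 bases of both genes, from the same source, are shown because the annotated ends overlap by 14 bases, which are in capitals and are complementary.
mt-Nd5: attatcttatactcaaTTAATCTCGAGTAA
mt-Nd6: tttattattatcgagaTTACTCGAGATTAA
The longest run of A in mt-Nd6 is 3 bases and its A content is 22.2%, while its longest run of T is 7 bases.

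The tRNA genes below flank mt-Nd1 (mt-Tl1 before it, mt-Ti after it), come next after mt-Ti (mt-Tq, then mt-Tm), or lie just past mt-Nd6 (mt-Te). They are shown because mt-Ti and mt-Tl1 are the tRNAs that passed the test, in opposite directions. The anticodon is in capitals and the 3′ CCA, which is added after transcription, is not encoded.
mt-Ti: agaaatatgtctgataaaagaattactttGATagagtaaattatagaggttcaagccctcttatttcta
mt-Tl1: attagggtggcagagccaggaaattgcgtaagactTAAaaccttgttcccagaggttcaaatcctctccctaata
mt-Tq: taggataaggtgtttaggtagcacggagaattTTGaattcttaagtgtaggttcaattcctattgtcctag
mt-Tm: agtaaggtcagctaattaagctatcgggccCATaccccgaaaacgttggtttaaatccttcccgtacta
mt-Te: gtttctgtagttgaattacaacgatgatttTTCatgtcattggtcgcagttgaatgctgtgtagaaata
The genes of mt-Ti and mt-Tq overlap by 3 bases on opposite strands. Whether the authors counted by strand is not stated in what was used here, so counts of a gene cannot be separated from counts of RNA antisense to it, and a fragment of a longer precursor that covers a tRNA may be counted for the tRNA.

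Some features of the libraries stand beside all results below. Totals ran from 46459980 to 61918541 counts. HFCF replicate 3 and OP replicate 2 held skeletal muscle transcripts: the summed level of 5 muscle markers, including the muscle actin gene Acta1 and the creatine kinase gene Ckm, was 275 and 834 CPM there (CPM, counts per 1000000 counts of the library) and at most 0.544 in the others. Red cell markers summed to 969 to 1830 CPM in HFCF and 196 to 426 CPM in OP. In the edgeR test described below 4 of the 5 fell, where 3.47% of all genes tested did. The other marker, Alas2, did not pass but lay the other way, at 46.2, 49.5 and 55.4 CPM in HFCF and 60.9, 72 and 56.6 CPM in OP. Hepatocyte markers were abundant in all libraries, at 30608 to 54843 CPM in HFCF and 49913 to 80058 CPM in OP, mostly from the albumin gene Alb. Of the 6, the transthyretin gene Ttr and the fatty acid-binding protein gene Fabp1 rose (log2 fold changes 1.13 and 1.25). Cps1, of the urea cycle, fell (-1.43). In the same test 3.26% of all genes rose and 3.47% fell. The part of these markers in the mitochondrial values was not tested. In bulk tissue, fewer cells of a type and less RNA per cell cannot be told apart.

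Where along a transcript the counts lay also moved with the group. The predicted gene Gm29216 repeats the last 483 of the 1545 bases of mt-Co1 with 1 mismatch, and Gm28439 repeats the first 876 of the 1378 bases of mt-Nd4 without a mismatch. Where a read fits both places it appears to be counted at both, because copies that span nearly a whole mitochondrial mRNA had nearly its count (98.2 to 98.9% for Gm28661 and mt-Co2 and for Gm28437 and mt-Co3, 102 to 103% for Gm10925 and mt-Atp6). The copy of the 3′ end of mt-Co1 held 16.4, 16.8 and 16.8% of the count of mt-Co1 in HFCF and 28.0, 25.3 and 20.1% in OP (mean 16.6 ± 0.235 and 24.4 ± 4.03, SD, n = 3 each). The copy of the 5′ end of mt-Nd4 held 29.2, 29 and 29.5% of the count of mt-Nd4 in HFCF and 19.7, 20.6 and 25.6% in OP (29.3 ± 0.269 and 21.9 ± 3.17). So in both mRNAs the OP libraries held relatively more counts toward the 3′ end, the groups did not overlap, and OP replicate 3 lay nearest to HFCF. These are descriptions with no test, chosen after their values were seen, and their part in the results below was not tested.

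The mRNAs made up nearly all mitochondrial counts and took a smaller share of the library in OP, while the rRNAs took a larger one. As a share of all counts, the 13 mRNAs were at 22, 18.8 and 14.1% in HFCF and 7.48, 6.08 and 14.4% in OP (mean 18.3 ± 4.01% and 9.31 ± 4.44%, SD, n = 3 each). OP replicates 1 and 2 lay below every HFCF library, but OP replicate 3 lay just above HFCF replicate 3, so the groups overlapped. The 2 rRNAs were at 0.206, 0.195 and 0.15% in HFCF and 0.255, 0.293 and 0.58% in OP (0.183 ± 0.0298% and 0.376 ± 0.178%), with every OP library above every HFCF library and replicate 3 the highest. The 22 tRNAs were at 0.107, 0.0968 and 0.0701% in HFCF and 0.0399, 0.0404 and 0.08% in OP (0.0912 ± 0.019% and 0.0534 ± 0.023%), and OP replicate 3 again fell among the HFCF values. No test was run on these sums. Without both libraries that held muscle transcripts, the log2 difference of OP minus HFCF was -0.97 for mRNAs, 0.94 for rRNAs and -0.85 for tRNAs, against -1.05, 0.95 and -0.83 with them.

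**Figure D1:**
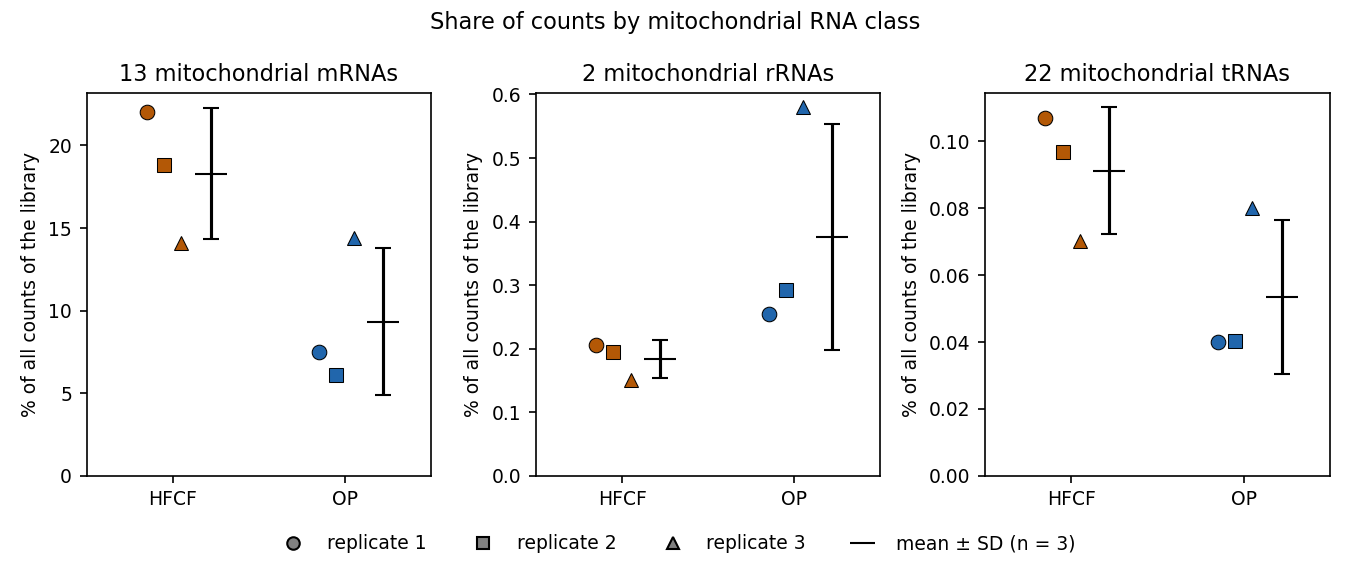
Share of all counts of a library (percent, linear axis from 0) in the mitochondrial mRNAs, rRNAs and tRNAs, for the HFCF and OP groups; symbols are replicates and bars the mean ± SD (n = 3). OP replicates 1 and 2 are below all HFCF libraries for mRNAs, at 7.48 and 6.08%, while all OP libraries are above all HFCF libraries for rRNAs.

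Genes were compared by the quasi-likelihood test of edgeR on the counts, and p-values were adjusted by Benjamini-Hochberg over all 17394 genes tested, with a threshold of 0.05. Each adjusted p below comes from that test unless another is named. Of the 37 genes 35 were tested, and 1 rose (mt-Ti) and 2 fell (mt-Tl1 and mt-Nd6). Over all genes tested, 6.73% were called, 3.26% higher and 3.47% lower, so the share called among the mitochondrial genes was near the background. The median log2 fold change was -0.97 over the mRNAs, 1.05 over the rRNAs and -0.57 over the 20 tRNAs tested, against 0.02 over all genes tested. The sign was shared within the long RNAs, with all 13 mRNAs below 0 (-1.76 to -0.51) and both rRNAs above 0. These genes come from common precursors in the same libraries and are not independent of each other.

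**Figure D2:**
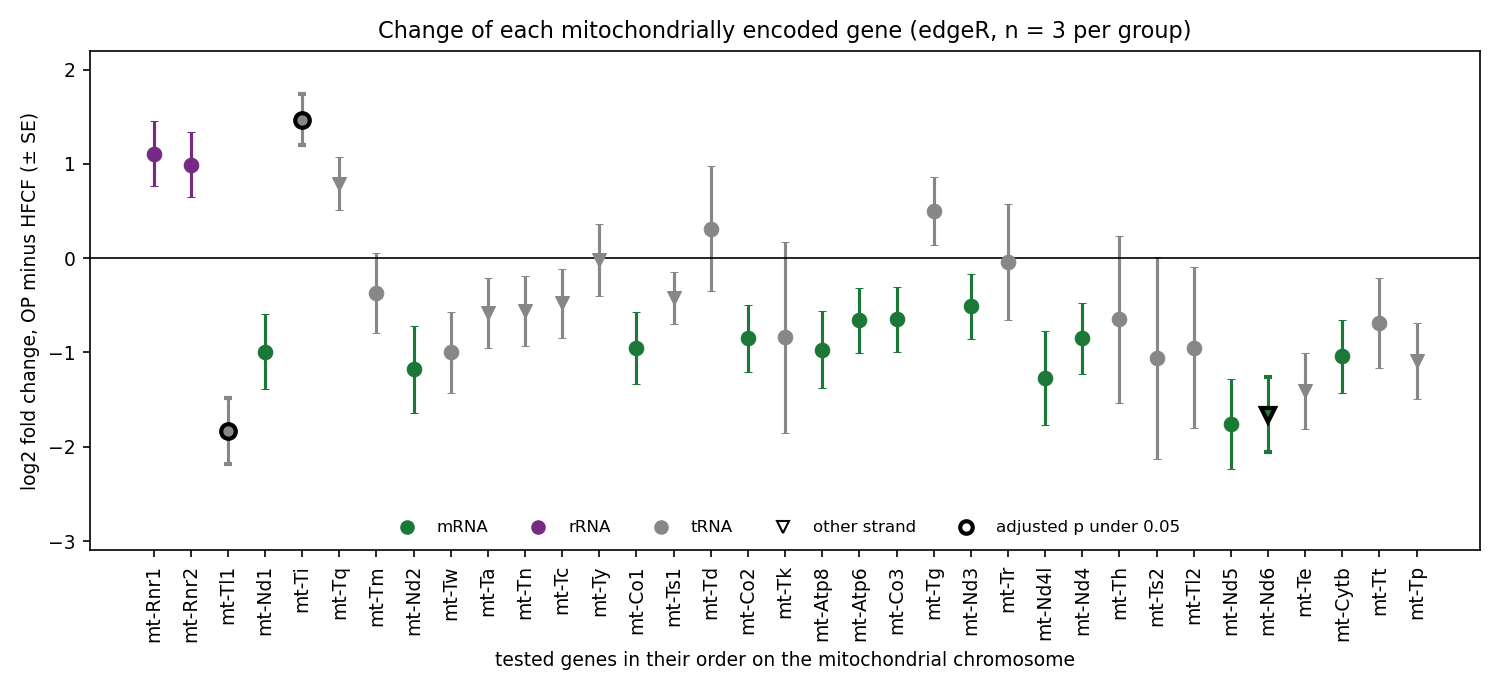
The log2 fold change of OP minus HFCF (edgeR, error bars ± SE, n = 3 per group) of each of the 35 genes tested, in their order on the mitochondrial chromosome; colours mark the RNA class, triangles the other strand and heavy outlines an adjusted p under 0.05. Both rRNAs and mt-Ti are above 0 on either side of mt-Tl1 and mt-Nd1, which are below 0, and the mRNA furthest below 0 is mt-Nd5 at -1.76.

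The calls depended on single libraries. Without HFCF replicate 1 or HFCF replicate 2, 0 mitochondrial genes passed in either direction, and 0.609% and 0.481% of all genes did. Without OP replicate 1 or OP replicate 2, mt-Ti alone passed, and 1.13% and 3.69% of all genes did. Without OP replicate 3, mt-Ti rose and 19 mitochondrial genes fell, 12 mRNAs (all but mt-Atp6) and 7 tRNAs, where 3.55% of all genes were lower. Without both libraries that held muscle transcripts, an alternative chosen after seeing the data, 0 passed in either direction (3.14% of all genes did), with the log2 fold changes close to those in all libraries (mt-Ti 1.64, mt-Tl1 -1.85 and mt-Nd6 -1.63).

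Complex I, the NADH dehydrogenase, takes 7 of the 13 mRNAs. Summed, they held 7.92, 6.51 and 4.69% of counts in HFCF and 2.24, 1.79 and 4.71% in OP (6.37 ± 1.62% and 2.91 ± 1.57%, a fold of 0.457). mt-Nd6, the only mRNA of the other strand, was the mRNA that passed the test. It stood at 0.546, 0.472 and 0.311% of counts in HFCF and 0.112, 0.0876 and 0.217% in OP, with no overlap between the groups, and fell by 1.66 on the log2 scale (SE 0.396, adjusted p = 0.0448, edgeR quasi-likelihood test, Benjamini-Hochberg).

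Its neighbour mt-Nd5, the longest of the 13, had the lowest fold change but missed the threshold. mt-Nd5 stood at 1.01, 0.84 and 0.556% in HFCF and 0.169, 0.124 and 0.411% in OP, also without overlap (log2 fold change -1.76, SE 0.481, adjusted p = 0.0653 in the same edgeR quasi-likelihood test). The ratio of mt-Nd6 to mt-Nd5 counts was 0.539, 0.562 and 0.559 in HFCF and 0.66, 0.705 and 0.528 in OP. These ratios overlapped, and both neighbours lay lower in OP. They are on opposite strands, but no tRNA gene on the strand of mt-Nd5 lies between it and mt-Cytb. RNA that runs past the end of mt-Nd5 would be antisense to mt-Nd6. Without knowing whether strand was counted, such RNA cannot be separated from mt-Nd6, so these neighbours are not independent measures of the strands.

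Among the other complex I mRNAs, mt-Nd4l was the only one whose groups did not overlap, at 0.132, 0.106 and 0.0845% in HFCF and 0.0279, 0.0215 and 0.0821% in OP (log2 fold change -1.27). mt-Nd4l shares an mRNA with mt-Nd4, and their genes overlap by 7 bases. mt-Nd1 stood at 2.02, 1.62 and 1.16% in HFCF and 0.62, 0.537 and 1.24% in OP (-0.99). mt-Nd2 stood at 2.33, 1.87 and 1.35% in HFCF and 0.558, 0.471 and 1.4% in OP (-1.18). In both, OP replicate 3 was above HFCF replicate 3. mt-Nd4 stood at 1.7, 1.44 and 1.1% in HFCF and 0.664, 0.478 and 1.19% in OP (-0.85). mt-Nd3 was at 0.184, 0.161 and 0.128% in HFCF and 0.0874, 0.0725 and 0.169% in OP (-0.51), the fold change nearest to 0 of the 13 mRNAs. None of these 5 passed (adjusted p of 0.156 to 0.407, edgeR quasi-likelihood test, Benjamini-Hochberg).

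Complex III has 1 mitochondrial subunit, cytochrome b, encoded by mt-Cytb. It held 2.85, 2.46 and 1.89% of counts in HFCF and 0.981, 0.716 and 1.79% in OP, without overlap (log2 fold change -1.04, SE 0.385, adjusted p = 0.139, edgeR quasi-likelihood test, Benjamini-Hochberg).

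Complex IV, the cytochrome c oxidase, has its 3 core subunits in the mitochondrial genome, and they held 7.91 ± 1.58% of counts in HFCF and 4.26 ± 1.9% in OP (SD, n = 3 each). mt-Co1, which carries the catalytic haem centre, had the highest level of the 37 genes. It stood at 6.37, 5.52 and 4.25% in HFCF and 2.19, 1.87 and 4.2% in OP, a narrow gap at replicate 3 (log2 fold change -0.95). mt-Co2 was at 1.5, 1.26 and 0.952% in HFCF and 0.54, 0.489 and 1.03% in OP (-0.85). mt-Co3 was at 1.51, 1.34 and 1.03% in HFCF and 0.669, 0.574 and 1.21% in OP (-0.65). Neither the groups of mt-Co2 nor those of mt-Co3 were separate. None of the 3 passed (adjusted p of 0.165 to 0.278, edgeR quasi-likelihood test, Benjamini-Hochberg).

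Complex V has mt-Atp6 and mt-Atp8, both part of the proton-conducting portion of the ATP synthase, whose genes overlap by 43 bases and are read from 1 mRNA. mt-Atp6 stood at 1.58, 1.4 and 1.05% in HFCF and 0.753, 0.558 and 1.22% in OP (log2 fold change -0.66). mt-Atp8 stood at 0.311, 0.275 and 0.201% in HFCF and 0.106, 0.0738 and 0.217% in OP (-0.97). Both overlapped between groups and neither passed (adjusted p of 0.274 and 0.181, edgeR quasi-likelihood test, Benjamini-Hochberg).

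Taken per length, mt-Co1 led the mRNAs with a mean of 34823 CPM per kilobase in HFCF and 17832 in OP, followed in HFCF by mt-Cytb at 20978 and mt-Atp6 at 19723. The lowest mRNAs per length in HFCF were mt-Nd4l (3624 in HFCF and 1476 in OP), mt-Nd5 (4404 and 1287) and mt-Nd3 (4525 and 3151). The opposite-strand mt-Nd6 was at 8536 in HFCF and 2673 in OP, below mt-Nd3 in OP. The rRNAs, which oligo(dT) selection depletes, were at 1020 and 2173 CPM per kilobase for mt-Rnr1 and 543 and 1064 for mt-Rnr2.

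Within the mitochondrial mRNA counts, mt-Nd5 and mt-Nd6 took a smaller share in OP, and mt-Nd3, mt-Atp6, mt-Co3, mt-Co2 and mt-Nd4 a larger one. mt-Co1 took 28.9 to 30.3% of them in HFCF and 29.2 to 30.8% in OP. mt-Nd6 took 2.48, 2.51 and 2.21% in HFCF and 1.49, 1.44 and 1.51% in OP (2.4 ± 0.165% and 1.48 ± 0.0359%), so OP replicate 3, which was close to HFCF in total, sat with the other OP libraries here. mt-Nd5 took 4.6, 4.47 and 3.96% in HFCF and 2.26, 2.05 and 2.86% in OP. mt-Nd3 took 0.834, 0.857 and 0.909% in HFCF and 1.17, 1.19 and 1.18% in OP, so its groups were well apart. mt-Atp6 took 7.17, 7.47 and 7.43% in HFCF and 10.1, 9.18 and 8.5% in OP, and mt-Co3 took 6.84, 7.12 and 7.33% and 8.94, 9.44 and 8.4%. The groups of mt-Co2 (fold 1.1) and mt-Nd4 (fold 1.08) were also separate, with OP higher. In all, 5 mRNAs had every OP library above every HFCF library, 2 had every OP library below, and 6 overlapped. An exact two-sided permutation test gave p = 0.1 for each of the 7, the smallest that 3 against 3 allows, and 0.186 after Benjamini-Hochberg adjustment over 13 tests. A rise in the share of 1 mRNA lowers those of the others, so these 13 values are tied.

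**Figure D3:**
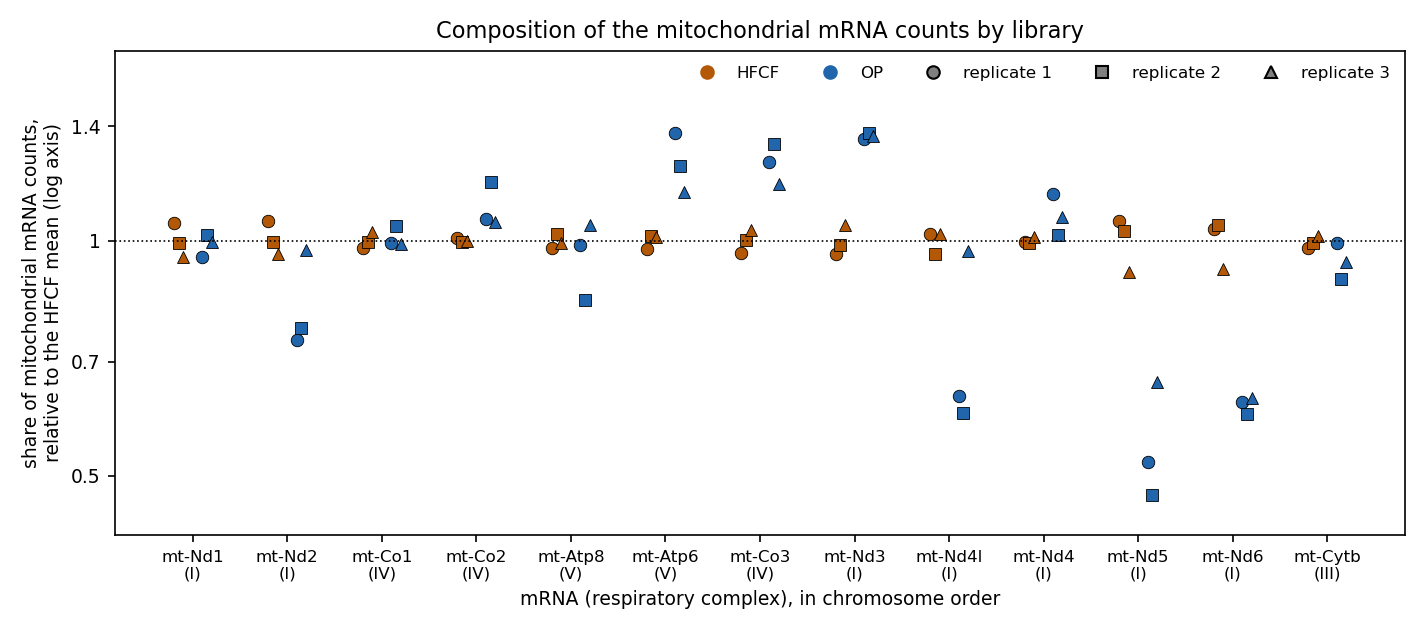
Share of the mitochondrial mRNA counts taken by each of the 13 mRNAs in each library, relative to the mean of the HFCF libraries (log axis), in chromosome order with the respiratory complex in parentheses; colours are groups and symbols replicates. The OP libraries lie below HFCF for mt-Nd5 and mt-Nd6 (folds of 0.55 and 0.617) and above it for mt-Nd3, mt-Atp6 and mt-Co3 (1.36, 1.26 and 1.26).

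The sequence of the nuclear copies split the mRNAs, because a read that fits 2 places appears to be counted at both, as given above. For 7 mRNAs a predicted gene matched at 99% identity or more over at least 200 bases: mt-Co1, mt-Co2, mt-Atp6, mt-Co3, mt-Nd3, mt-Nd4l and mt-Nd4. Their median log2 fold change was -0.85 (-1.27 to -0.51), and that of the 6 without such a copy was -1.11 (-1.76 to -0.97). How the authors counted such reads is not stated, and counts of the 7 are uncertain to the extent that they include reads of the copy. No copy was found for either rRNA among the annotated transcripts searched, so copies that are not annotated would have been missed. At lower identity, the gene Cep295 matched 62 of the 75 bases of mt-Tl1 (93.55%) and the 71 bases of mt-Tn (91.55%).

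The rRNAs stood apart from the mRNAs in direction. mt-Rnr1, the small subunit rRNA, was at 0.112, 0.105 and 0.0757% of counts in HFCF and 0.144, 0.162 and 0.317% in OP (log2 fold change 1.11, SE 0.345, adjusted p = 0.0906, edgeR quasi-likelihood test, Benjamini-Hochberg). mt-Rnr2, the large subunit rRNA, was at 0.094, 0.09 and 0.0739% in HFCF and 0.111, 0.131 and 0.263% in OP (0.99, SE 0.344, adjusted p = 0.119, same test). Neither passed, although both had every OP library above every HFCF library. Among all genes tested, 14.0% had OP above HFCF in this way, 15.4% had OP below, and 29.4% either, and among the 37 mitochondrial genes 5 had OP above, 7 below and 25 overlapped. OP replicate 3, with the most mRNA of the OP libraries, also had the most rRNA.

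Set against the mRNAs, the rRNA count was 0.934, 1.04 and 1.06% of the mRNA count in HFCF and 3.4, 4.82 and 4.04% in OP (1.01 ± 0.0687% and 4.09 ± 0.711%, a fold of 4.01). The groups were far apart relative to their spread, and the log2 difference of 2.0 ranged from 1.88 to 2.13 over the alternatives tried. Between adjacent genes, mt-Rnr2 counts were 0.0467, 0.0555 and 0.0636 of mt-Nd1 counts in HFCF and 0.179, 0.244 and 0.212 in OP. Between the rRNAs the proportion differed little, with mt-Rnr1 at 1.02 to 1.19 of mt-Rnr2 in HFCF and 1.21 to 1.3 in OP, although the groups were separate. Because the libraries were selected for poly(A), the ratio describes the rRNA that oligo(dT) selection retained and not total rRNA. Polyadenylation and RNA integrity were not measured, and their part in this ratio was not tested, although counts toward the 3′ end moved with the group as given above. Nuclear RNAs without a poly(A) tail, a list chosen after seeing the data, summed to 2.45 to 4.11 CPM in HFCF and 2.16 to 2.94 CPM in OP. Their levels were low, and 0 of the 5 tested passed. The median log2 fold change of the 5 was -1.4, with 2 above 0. In 2 of the 5 every OP library was below every HFCF library, where 15.4% of all genes tested were.

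**Figure D4:**
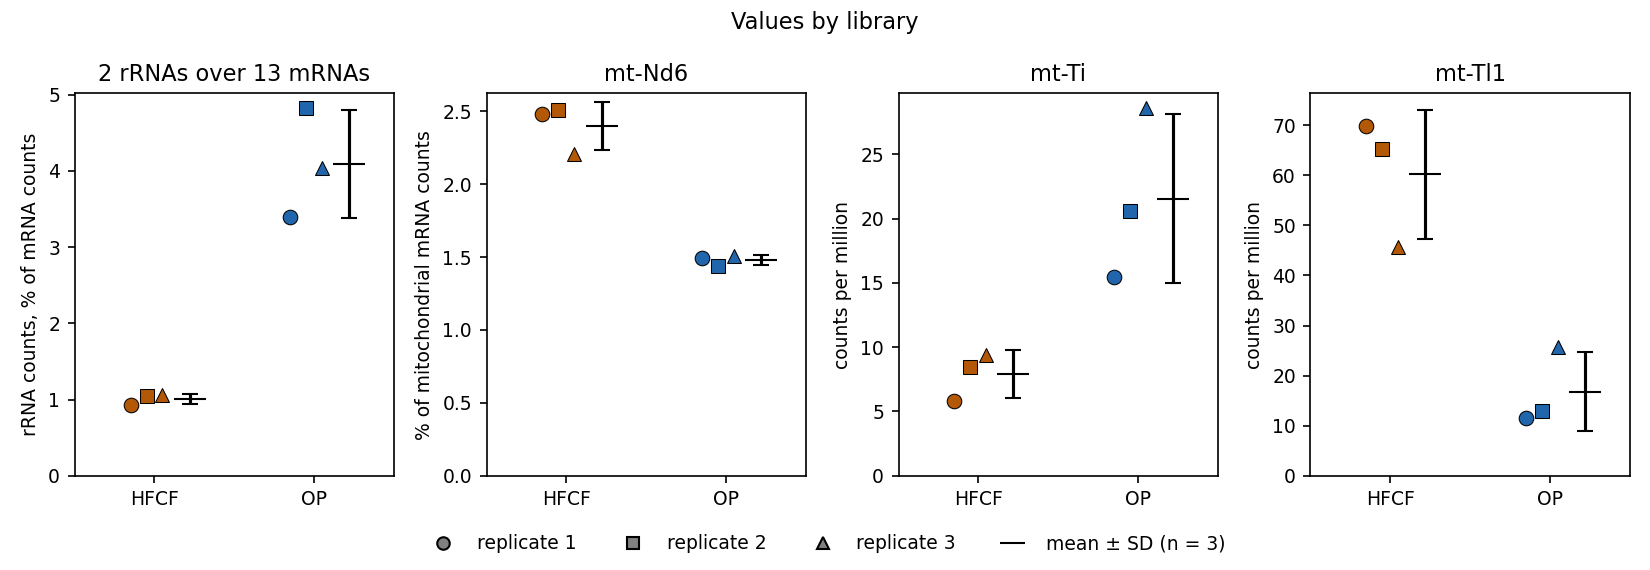
Values by library for the rRNA count as a percentage of the mitochondrial mRNA count, mt-Nd6 as a percentage of the mitochondrial mRNA count, and mt-Ti and mt-Tl1 in CPM (linear axes from 0); symbols are replicates and bars the mean ± SD (n = 3). The groups do not overlap in any of the 4 panels, with OP higher for the rRNA ratio (3.4 to 4.82% against 0.934 to 1.06%) and mt-Ti, and lower for mt-Nd6 and mt-Tl1.

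The tRNAs were sparse in these libraries, and their calls went both ways. mt-Ti, the isoleucine tRNA, was at 5.83, 8.48 and 9.4 CPM in HFCF and 15.5, 20.6 and 28.6 CPM in OP (7.9 ± 1.86 and 21.6 ± 6.58 CPM). It rose by 1.47 on the log2 scale (SE 0.267, adjusted p = 0.0199, edgeR quasi-likelihood test, Benjamini-Hochberg), without overlap. mt-Tl1, the leucine tRNA for UUR codons, was at 69.9, 65.2 and 45.6 CPM in HFCF and 11.5, 13 and 25.8 CPM in OP (60.2 ± 12.9 and 16.8 ± 7.86 CPM). It fell by 1.83 on the log2 scale (SE 0.351, adjusted p = 0.0231, same test), also without overlap. These genes lie on either side of mt-Nd1. The ratio of mt-Ti to mt-Tl1 counts went from 0.0833, 0.13 and 0.206 in HFCF to 1.35, 1.58 and 1.11 in OP, a fold of 10.2. It joins the tRNAs that passed in opposite directions, so its separation follows from that choice and adds no support to the calls.

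mt-Tl1 was also low against its neighbours on both sides. It was at 0.347, 0.402 and 0.393% of mt-Nd1 counts in HFCF and 0.186, 0.242 and 0.208% in OP. Against mt-Rnr2 it was at 7.43, 7.24 and 6.17% in HFCF and 1.04, 0.994 and 0.982% in OP, a fold of 0.145. mt-Tl1 joins the large rRNA to mt-Nd1 in the precursor without a gap. Next to mt-Ti, mt-Tq, the glutamine tRNA of the other strand, was at 7.71, 8.95 and 8.04 CPM in HFCF and 10.3, 11.6 and 20.4 CPM in OP (log2 fold change 0.79, adjusted p = 0.122, edgeR quasi-likelihood test, Benjamini-Hochberg). mt-Tm, the methionine tRNA that follows, was at 14, 14.1 and 10.8 CPM in HFCF and 6.53, 5.68 and 17.5 CPM in OP (-0.37). The ratio of mt-Tq to mt-Tm, which was not among the ratios planned, was 0.549 to 0.745 in HFCF and 1.16 to 2.04 in OP.

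Of the 22 tRNAs, 14 lie on the strand of most mRNAs and 8 on the other, and the 8 held most of the tRNA counts, 8.47 to 9.41 times those of the 14 in HFCF and 7.97 to 9.31 times in OP. These ratios overlapped. The tRNAs of most counts were mt-Ts1 and mt-Te, both of the other strand and both beside an mRNA. They lie past the annotated ends of mt-Co1 and, beyond mt-Nd6, of mt-Nd5, which are on the opposite strand to them. Their counts may include RNA antisense to them, so the ratios above do not measure tRNA abundance by strand. mt-Ts1, a serine tRNA whose gene overlaps the end of mt-Co1 by 3 bases on the opposite strand, was at 383, 346 and 261 CPM in HFCF and 199, 199 and 339 CPM in OP (log2 fold change -0.42). mt-Te, the glutamate tRNA beside mt-Nd6 on the same strand, was at 402, 346 and 235 CPM in HFCF and 94.9, 72.7 and 200 CPM in OP (-1.41, adjusted p = 0.0741, edgeR quasi-likelihood test, Benjamini-Hochberg). mt-Te was the only tRNA besides mt-Tl1 with every OP library below every HFCF library, and its counts were 7.41 ± 0.112% of those of mt-Nd6 in HFCF and 8.67 ± 0.476% in OP, a fold of 1.17 where mt-Nd6 itself had a fold of 0.313.

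The cluster of alanine, asparagine, cysteine and tyrosine tRNAs of the other strand, between mt-Nd2 and mt-Co1, had overlapping groups and no call. mt-Ta was at 28.3, 29.1 and 20.6 CPM in HFCF and 9.71, 14.7 and 27.2 CPM in OP. mt-Tn was at 33.1, 34.0 and 25.1 CPM and at 11.6, 17.3 and 32.7 CPM. mt-Tc was at 22.7, 22.8 and 18.4 CPM and at 8.32, 12.7 and 24.2 CPM. In these 3 and in mt-Ty (16, 16.6 and 11.4 CPM in HFCF and 8.69, 10.8 and 23.3 CPM in OP), OP replicate 3 was above HFCF replicate 3, and the log2 fold changes ran from -0.58 to -0.02. In mt-Tc and mt-Ty OP replicate 3 was the highest of the 6 libraries. The sign of mt-Ty turned without some libraries. mt-Tp, the proline tRNA at the end of the order, was at 72.8, 66.1 and 47.6 CPM in HFCF and 17.9, 20.1 and 48.9 CPM in OP (-1.09). mt-Tw, the tryptophan tRNA, was at 5.83, 6.13 and 2.99 CPM and at 1.48, 2.24 and 3.71 CPM (-1.0).

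The other 8 tRNAs tested were all below 2.5 CPM in each library, and none passed. mt-Tg, the glycine tRNA, was at 1.39 ± 0.259 CPM in HFCF and 1.97 ± 0.535 CPM in OP (SD, n = 3 each). mt-Tt, for threonine, was at 1.05, 1.49 and 1.04 CPM and at 0.409, 0.662 and 1.11 CPM. mt-Tr, for arginine, was at 0.718, 1.01 and 0.799 CPM and at 0.307, 0.598 and 1.5 CPM. For these 3 and the 5 below 1 CPM the groups overlapped. mt-Th (histidine) was at 0.951, 0.366 and 0.544 CPM in HFCF and 0.17, 0.0969 and 0.908 CPM in OP. mt-Tl2 (leucine, CUN codons) was at 0.913, 0.344 and 0.408 CPM and at 0.119, 0.113 and 0.632 CPM. mt-Ts2 (serine, AGY codons) was at 0.854, 0.215 and 0.323 CPM and at 0.0341, 0.0808 and 0.553 CPM. In OP replicate 1 mt-Ts2 was below what a count of 0 allows and mt-Tk was at it. mt-Tk (lysine) was at 0.544, 0.194 and 0.085 CPM and at 0.0511, 0.0969 and 0.316 CPM. mt-Td (aspartate) was at 0.33, 0.151 and 0.306 CPM and at 0.324, 0.242 and 0.415 CPM. A count of 0 allows up to 3 counts, or 0.0485 to 0.0646 CPM by library, and covers counting error only. The remaining pair, mt-Tf and mt-Tv, lie before and after mt-Rnr1. They had 0 to 9 counts in a library and were not tested. mt-Tf had 2, 0 and 4 counts in HFCF and 6, 7 and 9 in OP, and mt-Tv had 4, 2 and 8 and 6, 3 and 6.

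The nuclear genes of the same complexes lay mostly above 0, where all mitochondrial mRNAs lay below. Over all genes tested, 3.26% rose, 3.47% fell and the median log2 fold change was 0.02. Of 36 nuclear complex I subunits tested, 33 had a log2 fold change above 0, with a median of 0.35, and 1 rose. That was Ndufa10, an accessory subunit, at 65.4, 71.8 and 96.6 CPM in HFCF and 150, 152 and 104 CPM in OP (log2 fold change 0.79, SE 0.184, adjusted p = 0.0416, edgeR quasi-likelihood test, Benjamini-Hochberg). In complex III 1 of 9 rose and the median was 0.27; Uqcrb was at 98.5, 104 and 141 CPM in HFCF and 194, 175 and 175 CPM in OP (0.67, adjusted p = 0.0425, same test). In complex II, which has no mitochondrially encoded subunit, 0 of 4 passed (median 0.47), in complex IV 0 of 13 (median 0.42) and in complex V 0 of 16 (median 0.24). The smallest p in complex II were those of Sdhb (log2 fold change 0.47, adjusted p = 0.0886), Sdhc (0.50, 0.201) and Sdha (0.47, 0.359) in the edgeR quasi-likelihood test. In complex IV they were those of Cox8a (0.48, adjusted p = 0.0974), Cox6a1 (0.45, 0.111) and Cox5b (0.44, 0.113), and in complex V those of Atp5mf (0.49, 0.0691), Atp5mc2 (0.54, 0.0928) and Atp5pf (0.43, 0.101), by the same edgeR test.

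As a ratio of summed counts, nuclear complex I subunits were at 3.35, 4.35 and 7.31% of the mitochondrial ones in HFCF and 15.8, 22.6 and 7.66% in OP. For complex III the ratio was 4.63, 5.58 and 8.85% in HFCF and 17.9, 27.8 and 10.1% in OP. Both were separate, narrowly at replicate 3. For complex IV it was 2.09 to 4.59% in HFCF and 4.39 to 10.7% in OP, and for complex V 16.5 to 34.3% and 24.6 to 78.9%, both overlapping.

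**Figure D5:**
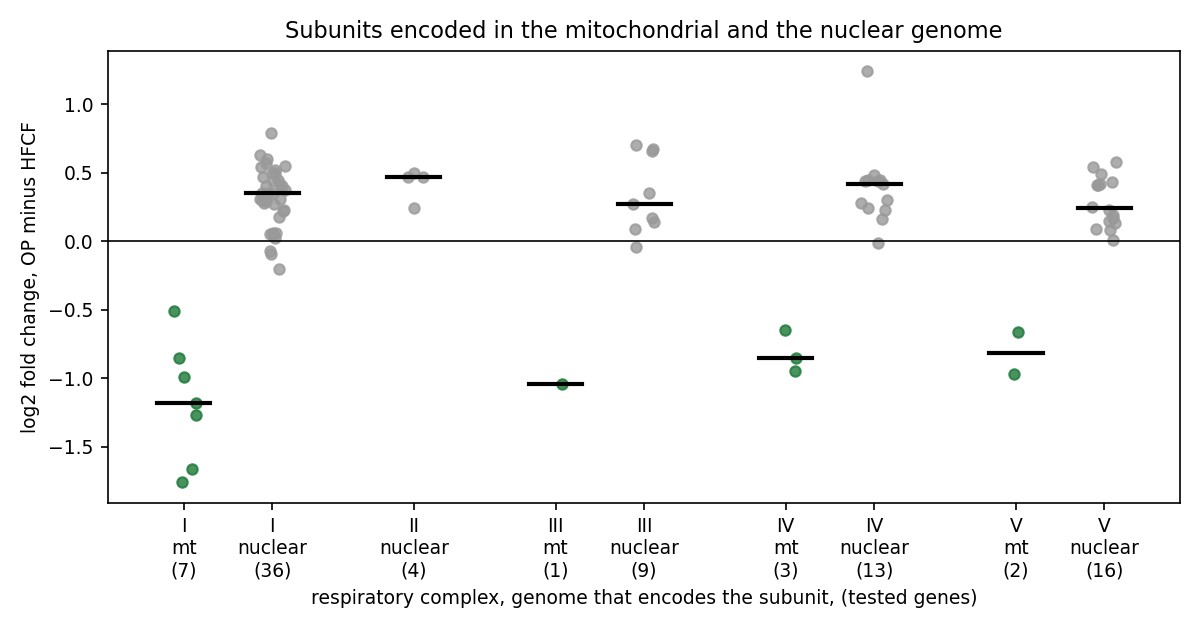
The log2 fold change of OP minus HFCF of each tested subunit gene of respiratory complexes I to V, split by the genome that encodes it, with the number of genes tested in parentheses. Mitochondrial subunits all lie below 0, and the nuclear ones have medians of 0.24 to 0.47.

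The genes that copy and transcribe mitochondrial DNA gave calls in both directions. In replication, 1 of 12 rose and 2 fell (median -0.23), where 3.26% of all genes tested rose and 3.47% fell: Mgme1, a mitochondrial exonuclease, rose from 2.66, 2.26 and 2.99 CPM to 4.5, 6.91 and 6.04 CPM. Polg, the catalytic subunit of the mitochondrial DNA polymerase, fell from 64.3, 64.6 and 62.8 CPM to 42.2, 43.6 and 44.3 CPM, and Primpol, a primase-polymerase, fell from 10.8, 14.1 and 12.9 CPM to 3.08, 4.51 and 4.34 CPM. The edgeR quasi-likelihood test gave these 3 genes Benjamini-Hochberg adjusted p of 0.0375, 0.0421 and 0.00618. In transcription, 1 of 11 rose and 0 fell (median 0.16): Tfb2m, the promoter-melting factor of the mitochondrial RNA polymerase, from 11.7, 13.2 and 14.9 CPM to 23.9, 19.1 and 21.4 CPM (log2 fold change 0.70, adjusted p = 0.0335, same test). The polymerase Polrmt (-0.35) and Tfam, which binds and packages mitochondrial DNA (0.19), did not pass, and both were picked out after their values were seen.

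Of 31 genes for processing, modification and decay of mitochondrial RNA, 0 passed in edgeR's quasi-likelihood test, with a median of 0.12. Among them the poly(A) polymerase Mtpap had a log2 fold change of -0.09, the mRNA-binding Lrpprc 0.04 and the polynucleotide phosphorylase Pnpt1 -0.02, and these 3 were picked out after their values were seen. The smallest p were those of Fastkd1 (-0.59, adjusted p = 0.0633), Trmu (-0.48, 0.0684) and Trmt5 (0.71, 0.0689) in edgeR's test. Of 22 genes that charge mitochondrial tRNAs 1 rose, Gatb, a subunit of the enzyme that forms the charged glutamine tRNA (0.72, adjusted p = 0.0285, edgeR's quasi-likelihood test). Over all genes tested, 3.26% rose and 3.47% fell.

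Among 12 regulators of mitochondrial biogenesis 1 fell, where 3.26% of all genes tested rose and 3.47% fell. Ppargc1a, the coactivator PGC-1α that drives nuclear genes of the mitochondrion, was at 22.2, 26.3 and 22.4 CPM in HFCF and 4.72, 4.72 and 5.39 CPM in OP. It fell by 2.25 on the log2 scale (SE 0.161, adjusted p = 0.00193, edgeR quasi-likelihood test, Benjamini-Hochberg), and the groups lay far apart. Of 18 nuclear genes often used as markers of mitochondrial mass 1 rose, the citrate synthase gene Cs, from 58.4, 66.3 and 75.8 CPM to 102, 111 and 91.9 CPM (0.61, adjusted p = 0.0362, same test), and 16 of 18 had values above 0 (median 0.31). Of 9 RNAs retained in the nucleus 2 fell, Malat1 (-1.16, adjusted p = 0.0469) and Mir22hg (-1.62, adjusted p = 0.00231, edgeR's quasi-likelihood test). Their summed level was 1349 to 2100 CPM in HFCF and 724 to 981 CPM in OP, most of it from Neat1, whose groups overlapped and which did not pass, at 1255 ± 493 and 572 ± 134 CPM (adjusted p = 0.0807, same edgeR test). Meg3 lay the other way, at 4.05 ± 0.242 CPM in HFCF and 6.88 ± 1.45 CPM in OP (0.77, adjusted p = 0.0906, same edgeR test), and Neat1 and Meg3 were picked out after their values were seen. The part of nuclear retention or of RNA quality in the mitochondrial values was not tested.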

How the data were processed

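RNA was extracted from 6 fresh liver samples, polyadenylated RNA was selected on oligo(dT) beads and libraries were built with dUTP, per the labels' protocols. Cutadapt 1.9, FastQC and the build GRCm39 are named in the submitters' processing notes; which aligner and counter were used, and whether strand was counted, is not given in the sources read. The deposited table holds raw counts of reads per gene, and 0 columns had to be left out. Counts of 4 are over-represented in it, so 1 read pair may be worth 4 counts. Symbols matched 55141 of 55401 identifiers. The annotation at hand (GENCODE M21, GRCm38) is of another build, so no coordinates are given.

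Groups came from the sample titles. Genes passing filterByExpr were scaled by TMM and tested two-sided with edgeR 4.0.16 in R 4.3.3, without a block, with Benjamini-Hochberg adjustment and a threshold of 0.05; the fit was tested on simulated data. CPM and percentages use the library total. SEs come from the fold change and the F statistic. Sums, shares and ratios were described without a test, except the makeup of the mRNAs (exact permutation test). Ratios between single genes were not among those planned. Copies were sought with BLAST+ 2.17.0 at 90% identity among the GENCODE M21 transcripts, not the whole genome. Alternatives were DESeq2 1.42.0, limma-voom (limma 3.58.1), RLE, upper quartile, no scaling factors, nuclear-gene library sizes, other filters, a replicate block, counts divided by 4 and leaving out each library. After seeing the data came dropping the predicted genes, robust dispersions and leaving out both libraries with muscle transcripts. All mRNAs, rRNAs and tRNAs with a mean of at least 10 counts were named with their values, and of each nuclear list the members called or the 3 with the smallest p; others named are marked. The members and lists were chosen with earlier results of these data known.

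Of the lists not given in the report, markers of cholangiocytes, Kupffer cells and macrophages, lymphocytes, endothelial cells, stellate cells and adipocytes had 0 members called in edgeR's test, and Kupffer cell markers summed to 153 to 207 CPM in HFCF and 96.4 to 145 CPM in OP. Of the 12 predicted genes expected to resemble mitochondrial sequence, 10 were tested and 2 were lower, where 3.47% of all genes tested were. The 12 summed to 5.45 ± 1.09% of counts in HFCF and 3.32 ± 1.36% in OP.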

Additional observations from a re-analysis of the deposited data

How the results depend on the processing

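The main count was 1 mitochondrial gene higher and 2 lower in OP. DESeq2 called 4 higher (both rRNAs, mt-Ti and mt-Tq) and 8 lower, where 8.3% of all genes were called in either direction. Limma-voom called 4 lower and the fit with no low-count filter 1 lower, where 3.87% and 1.43% of all genes were lower. Leaving out each library in turn gave 0 to 1 higher and 0 to 19 lower, and leaving out both libraries with muscle transcripts gave 0 and 0. The labels do not say whether the replicate numbers pair the libraries. Deviations from the group mean correlated at 0.0229, -0.126 and -0.164 between libraries of the same number. No HFCF library correlated best with its own number, but so few libraries cannot exclude a pairing. With the replicate block 0 were lower, where 0.535% of all genes were lower. Over 19 alternatives mt-Ti passed in 16 (log2 fold change 1.17 to 1.68, adjusted p 5.81e-06 to 0.127), mt-Tl1 in 13 (-2.34 to -1.60, adjusted p 1.4e-07 to 0.125) and mt-Nd6 in 12 (-2.20 to -1.40, adjusted p 0.0147 to 0.189) by edgeR, limma or DESeq2, all in the main direction. The sign turned for mt-Ty without HFCF replicate 1 (0.10) or 2 (0.02) or OP replicate 1 (0.25) or 2 (0.16), in a range from -0.63, for mt-Td without HFCF replicate 2 (-0.01; 0.56 without HFCF replicate 1 and 0.58 without both libraries with muscle transcripts), for mt-Tk without HFCF replicate 1 (0.23, range from -1.93), and for mt-Tr without HFCF replicate 2 (0.05), OP replicate 1 (0.36) or 2 (0.16) or both libraries with muscle transcripts (0.09), in a range from -0.92. The cause of these differences was not tested. The log2 differences of the class shares kept their sign under the alternatives run, at -1.42 to -0.79 for mRNAs, 0.59 to 1.18 for rRNAs and -1.16 to -0.66 for tRNAs. Depth limits the tRNAs of few counts, and if 1 read pair is worth 4 counts the depth is lower than the totals say.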
